A study of Mus musculus with 2 samples.

Results

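Cxcl9, Cxcl10, Cxcl16 and Spp1 were followed in tumor macrophages. They are 4 of the 32285 genes listed for each of 2 single-cell libraries, and they were taken by symbol. Sorted GR1+ cells had been profiled by droplet sequencing (10x Genomics) from orthotopic 4T1 mammary tumors of female BALB/c mice, aged 6 to 8 weeks in the labels, before any anti-PD1 treatment. One library held the parental 4T1P tumor, which does not respond to anti-PD1, and the other held the 4T1M tumor, a derivative of 4T1 mutagenized with MNNG that does respond. Each library was made from a pool of mice, 5 per sample in the series record, while the study's text gives another pool size and an older age at injection, and 4T1M is called both a clone and multiclonal in the methods. There is thus 1 sample per tumor, no spread between animals can be given and no test between the tumors was possible, so that each interval below is a 95% interval for counting error only.

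CXCL9 and CXCL10 are chemokines induced by interferons, and both attract activated T cells and NK cells through the receptor CXCR3. CXCL16 is made as a membrane protein with a chemokine domain, binds CXCR6 on T cells, and can be shed by the metalloproteinases ADAM10 and ADAM17. SPP1 (osteopontin) is a secreted matrix phosphoprotein that binds CD44 and several integrins and is abundant in macrophages of hypoxic and remodelling tumor regions. In tumor macrophages, CXCL9 and SPP1 have been used as the opposite poles of one axis, and the question here was how the 4 genes were spread over the macrophages of both tumors.

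The 4T1P library held 2947 barcodes with 21855657 UMIs and the 4T1M library 5004 barcodes with 24303957 UMIs, where a UMI stands for a captured RNA molecule. After the limits of 500 to 5000 genes and at most 10% mitochondrial UMIs, 1726 and 3461 cells were retained. Macrophages were the retained cells with under 1.5% of their UMIs from S100a8 and S100a9 and at least 0.3% from C1qa, C1qb, C1qc, Apoe, Csf1r, Cd68 and Fn1, and they numbered 798 in 4T1P and 976 in 4T1M. Their median depths were 9727 and 9214 UMIs. Neutrophils, with at least 1.5% from S100a8 and S100a9, numbered 623 and 1739. Of 12 macrophage markers outside the gate, such as Adgre1 and Lyz2, all 12 were detected in the macrophages of both libraries, and at least 2 of them were found in 98.7% and 98.5% of the cells. By the same measure, at least 2 of 10 neutrophil markers were found in 33.6% and 45.8% of these macrophages. The sort was on GR1, an antigen shared by Ly6G and Ly6C, but in macrophages Ly6g had only 3 UMIs in 4T1P and 12 in 4T1M, and Ly6c2 had 3.76 and 28.0 CPM (counts of the gene per 1000000 UMIs of the summed cells). Only 5 barcodes occurred in both libraries, 3 of them retained and 0 of them macrophages in both. Just inside the gate, at 0.3% to 0.4% of macrophage genes, 20 and 61 cells had 161 and 19.6 CPM of Cxcl9, and just outside it, at 0.2% to 0.3%, 36 and 81 cells had 15.8 and 57.6 CPM. Spp1 had 1632 and 3941 CPM just inside the gate and 1731 and 2125 CPM just outside it. The markers of other cells summed in macrophages to 290 and 481 CPM for neutrophils (18768 and 15771 CPM in neutrophils themselves), 3.88 and 4.39 CPM for T or NK cells, 29.8 and 52.1 CPM for B cells, 16.7 and 24.7 CPM for dendritic cells, 31.7 and 36.6 CPM for carcinoma, 31.5 and 43.1 CPM for fibroblasts or endothelium, and 0 for mast cells.

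The genes lie on 2 chromosomes of GRCm38. Cxcl9 (ENSMUSG00000029417, chr5:92321347-92328079, minus strand) and Cxcl10 (ENSMUSG00000034855, chr5:92346638-92348889, minus strand) are neighbors separated by 18558 bases. Spp1 (ENSMUSG00000029304, chr5:104435118-104441050, plus strand) lies 12086228 bases further along the same chromosome, and Cxcl16 (ENSMUSG00000018920) is on the minus strand at chr11:70453983-70459984. The 250 bases before the start are shown for 3 of the 4 genes, because Cxcl9 and Cxcl10 share a textbook interferon response and Spp1 does not. They are RefSeq sequences of GRCm38.p6, read 5′ to 3′ on the gene's strand, at chr5:92328080-92328329 (minus strand) for Cxcl9, chr5:92348890-92349139 (minus strand) for Cxcl10 and chr5:104434861-104435110 (plus strand) for the first of 2 starts of Spp1. Capitals mark matches to the core of the interferon-stimulated response element (GAAANNGAA, either strand) or to the NF-kB site.
Cxcl9: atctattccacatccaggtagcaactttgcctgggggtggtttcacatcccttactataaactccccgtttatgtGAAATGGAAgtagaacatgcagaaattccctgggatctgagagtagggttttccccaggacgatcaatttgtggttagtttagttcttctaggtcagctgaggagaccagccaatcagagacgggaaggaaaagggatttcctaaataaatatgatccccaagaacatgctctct
Cxcl10: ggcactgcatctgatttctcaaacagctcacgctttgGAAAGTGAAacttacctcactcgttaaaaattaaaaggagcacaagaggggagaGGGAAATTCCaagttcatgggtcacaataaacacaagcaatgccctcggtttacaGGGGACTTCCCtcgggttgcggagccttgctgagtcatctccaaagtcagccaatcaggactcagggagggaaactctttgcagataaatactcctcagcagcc
Spp1: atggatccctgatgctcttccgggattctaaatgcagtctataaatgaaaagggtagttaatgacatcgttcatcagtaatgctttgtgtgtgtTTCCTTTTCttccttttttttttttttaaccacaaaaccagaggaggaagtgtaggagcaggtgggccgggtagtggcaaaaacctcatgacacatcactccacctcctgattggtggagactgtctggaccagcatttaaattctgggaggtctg
RefSeq has a second start for Spp1, at whose 250 bases before (chr5:104435942-104436191) none of the motifs below matched. Each of the 3 sequences shown held a match to the interferon element, GAAATGGAA from 175 to 167 bases before the start of Cxcl9, GAAAGTGAA from 213 to 205 bases before that of Cxcl10, and TTCCTTTTC, on the opposite strand, from 156 to 148 bases before the first start of Spp1. Such a match is common, since 7.15% of 32536 promoters of this length held one. Cxcl10 alone of the 3 held an exact match to the NF-kB pattern, with 3 matches of which 2 overlap, against 7.28% of all promoters. No exact match to the gamma-activated sequence TTCNNNGAA, found in 7.04% of promoters, was present in these windows. An exact pattern, here as for the NF-kB site, can miss variant sites, so a window without a match may still hold one.

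Summed over macrophages, Spp1 was the most abundant of the 4 transcripts and Cxcl9 the least, and none of the 4 levels differed by 1.5-fold between the tumors. Levels are UMIs of the 3′ end and were compared between cells, not between genes by length. Cxcl9 had 139 CPM in 4T1P (Poisson interval 131 to 147) and 148 CPM in 4T1M (141 to 156). Cxcl10 had 329.5 CPM (318 to 342) and 319 CPM (308 to 330.5). Cxcl16 had 449.5 CPM (436 to 464) and 561 CPM (546 to 577), and Spp1 had 3084 CPM (3048 to 3121) and 3476 CPM (3439 to 3514). The log2 ratio of 4T1M over 4T1P was 0.10 for Cxcl9 (counting interval -0.02 to 0.21), -0.05 for Cxcl10 (-0.12 to 0.03), 0.32 for Cxcl16 (0.26 to 0.38) and 0.17 for Spp1 (0.15 to 0.20). Of 9874 genes with at least 50 UMIs in macrophages, 4.03% were at least 1.5-fold higher and 4.08% at least 1.5-fold lower in 4T1M, and 0 of the 4 were among either. The Cxcl9 ratio did not keep its direction. With a mitochondrial limit of 5% it was -0.84, and without macrophages holding a UMI of another cell type's marker it was -0.86, both past 1.5-fold. Neutrophil markers were not counted in that setting, here or below, so macrophages with neutrophil markers stayed in it. In 4T1M the macrophages above the 5% limit had 224 CPM of Cxcl9 and those at or below it 84.1 CPM, against 129 and 151 CPM in 4T1P. Macrophages with no UMI of another type's marker had 139 and 76.3 CPM, and those with one 139 and 174 CPM. The cells without such a marker were also much shallower, with median depths of 3590 and 2770 UMIs against 15734 and 12306 UMIs. The part of these in the level was not tested.

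**Figure D1:**
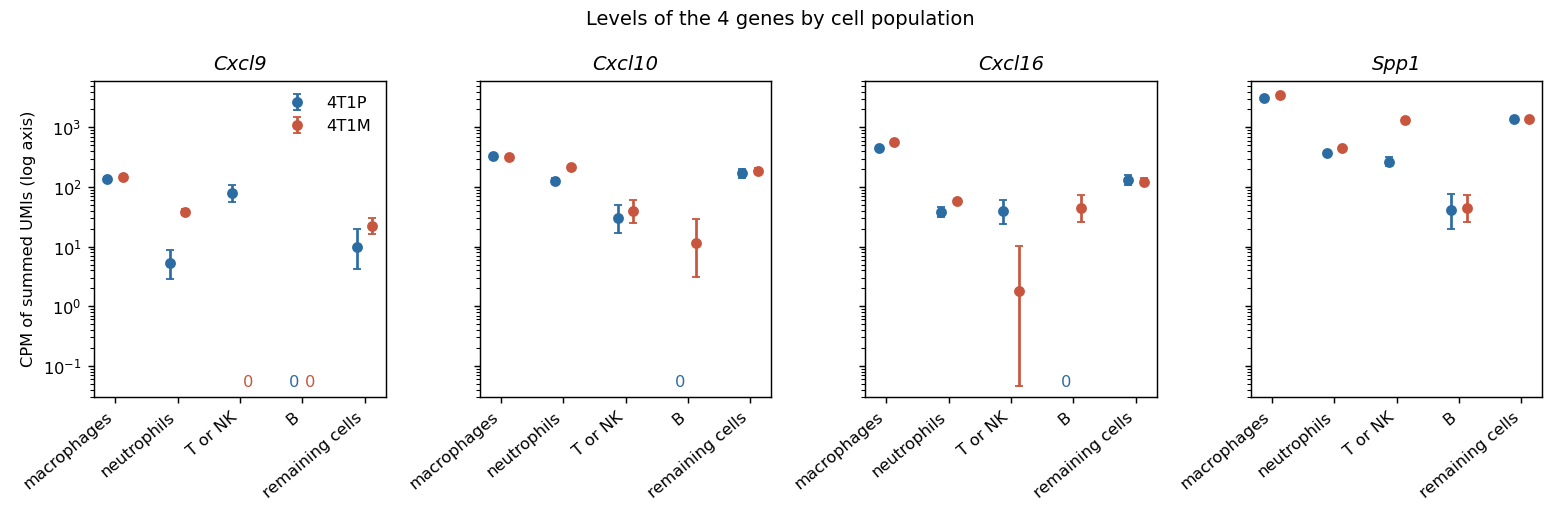
CPM of Cxcl9, Cxcl10, Cxcl16 and Spp1 (log axis) in macrophages, neutrophils, T or NK cells, B cells and the remaining retained cells of 4T1P (blue) and 4T1M (red); bars are 95% Poisson intervals for counting error, and a 0 at the foot stands for no UMI. Each gene is highest in macrophages in both libraries, and the libraries lie close together there, for example at 3084 and 3476 CPM for Spp1.

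Neutrophils had less of each gene. The level in macrophages over that in neutrophils was 26.1-fold for Cxcl9 in 4T1P (counting interval 15.5 to 47.9) and 3.87-fold in 4T1M (3.39 to 4.42). For Cxcl16 it was 11.7-fold and 9.69-fold, and for Spp1 8.13-fold and 7.64-fold. Cxcl10 was the least restricted to macrophages, at 2.60-fold (2.32 to 2.93) and 1.47-fold (1.38 to 1.56). Between the tumors, 3 of the 4 genes were at least 1.5-fold higher in 4T1M neutrophils, where 9.71% of 6861 genes were that much higher and 3.28% that much lower. Cxcl10 had 127 CPM in 4T1P neutrophils and 217 CPM in 4T1M neutrophils (log2 ratio 0.78, 0.61 to 0.96), Cxcl16 had 38.4 and 57.9 CPM (0.59, 0.28 to 0.92), and Cxcl9 had 5.32 and 38.4 CPM. The Cxcl9 value rests on 1 cell, which held 206 of the 269 UMIs in 4T1M, and without the highest cell of each library the levels were 4.95 and 9.02 CPM (0.87, -0.01 to 1.85). Neutrophil-gated cells that also reached the macrophage threshold of 0.3%, 29 in 4T1P and 100 in 4T1M, had 9.02 and 324 CPM of Cxcl9. The 4T1M value is 230 UMIs, and the same 1 cell held 206 of them. In the other neutrophils the values were 4.98 and 6.19 CPM of Cxcl9, 114 and 220 CPM of Cxcl10, 14.5 and 24.1 CPM of Cxcl16, and 251 and 214 CPM of Spp1.

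The share of cells with a UMI was compared at a common depth, with 2000 UMIs drawn at random from each cell, and 165 macrophages in 4T1P and 216 in 4T1M were too shallow to enter. Cxcl9 was detected in 9.64% of 633 macrophages in 4T1P (exact binomial interval 7.45% to 12.2%) and in 10.7% of 760 in 4T1M (8.55% to 13.1%). Cxcl10 was detected in 21.6% (18.5% to 25.1%) and 26.2% (23.1% to 29.5%), Cxcl16 in 53.4% (49.4% to 57.3%) and 60.5% (56.9% to 64.0%), and Spp1 in 66.8% (63.0% to 70.5%) and 70.5% (67.1% to 73.7%). The intervals of the 2 tumors overlapped for all 4 genes. Here and below, overlap of 2 intervals does not show that the shares were equal. Without thinning the shares were 16.2% and 18.5% for Cxcl9, 38.5% and 42.0% for Cxcl10, 75.9% and 76.2% for Cxcl16, and 77.2% and 78.5% for Spp1. Free RNA can give a UMI to cells that do not express a gene, and for Spp1 the share at the same 2000 UMIs was 5.13% and 15.6% in B cells, which should lack it, 12.3% and 8.60% in T or NK cells, and 23.3% and 20.3% in neutrophils. For Cxcl9 the background was lower, at 1.34% and 1.36% in neutrophils and 0 of 39 and 0 of 45 B cells. Single cells carried some of the other totals, since 700 of the 727 Spp1 UMIs of 4T1M T or NK cells and all 40 Cxcl9 UMIs of those of 4T1P came from 1 cell. Median depths before thinning were 4592 and 6378 UMIs in B cells and 3075 and 2972 UMIs in neutrophils.

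The receptors of these ligands were looked up in the same cells. Cxcr3, the receptor of CXCL9 and CXCL10, had 16.0 CPM in the 74 T or NK cells of 4T1P and 12.7 CPM in the 96 of 4T1M, against 0.228 and 0.428 CPM in macrophages, and B cells had 20.5 CPM (5 UMIs) and 5.67 CPM (2 UMIs). Cxcr6, the receptor of CXCL16, had 64.0 and 67.0 CPM in T or NK cells and 0.228 and 0.963 CPM in macrophages. Ifng, which encodes interferon-gamma, had 48.0 CPM (30.8 to 71.5) and 48.9 CPM (32.2 to 71.2) in T or NK cells and 0 UMIs in the macrophages and neutrophils of either library. Cd44, a receptor of SPP1, was widespread, with 447 and 456 CPM in macrophages and 695 and 776 CPM in neutrophils. T or NK cells were few, and these levels rest on 7 to 37 UMIs per library for Cxcr3, Cxcr6 and Ifng.

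Cxcl9 was concentrated in very few macrophages. In 4T1P, 10 of 798 macrophages held 50% of all Cxcl9 UMIs, and in 4T1M 15 of 976 did. For Cxcl10 the same 50% took 25 and 48 cells, for Spp1 55 and 56 cells, and for Cxcl16 120 and 166 cells. The highest single macrophage held 95 Cxcl9 UMIs in 4T1P and 91 in 4T1M, and 1539 and 1312 Spp1 UMIs. Cells with at least 10 UMIs made up 3.26% and 3.28% of macrophages for Cxcl9, 9.02% and 9.32% for Cxcl10, 18.3% and 20.3% for Cxcl16, and 41.5% and 42.2% for Spp1. Cxcl16 was thus the most evenly spread of the 4, with a median of 5 and 6 UMIs in the cells that had any.

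**Figure D2:**
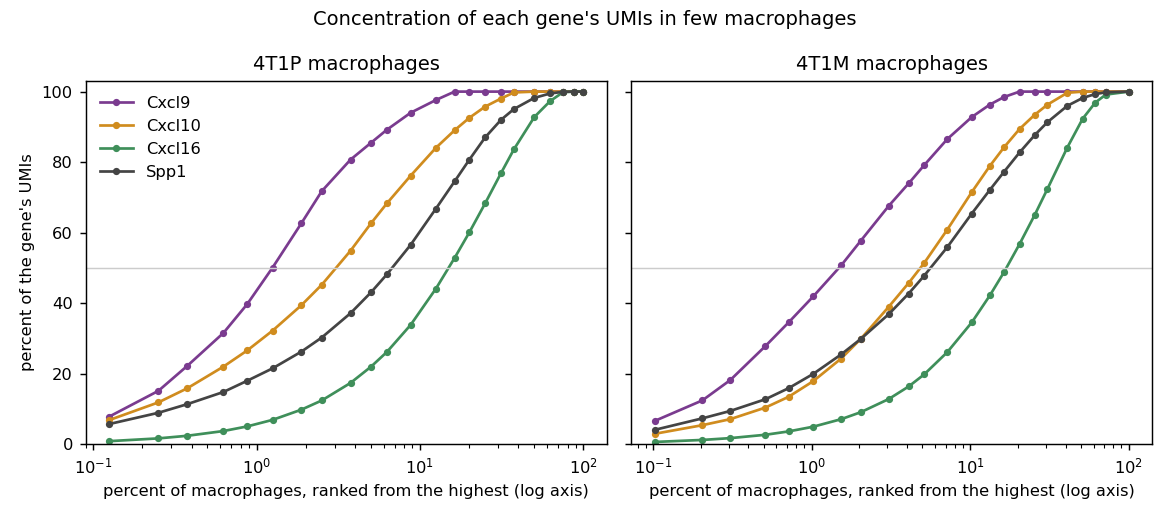
Percent of each gene's UMIs (vertical axis) held by the highest-ranked percent of macrophages (horizontal log axis), for 798 macrophages of 4T1P and 976 of 4T1M; the gray line marks 50%. The Cxcl9 curve lies farthest to the left, reaching 50% with 10 and 15 cells, and the Cxcl16 curve farthest to the right, at 120 and 166 cells.

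Macrophages were then divided by detection of Cxcl9 and Spp1 at 2000 UMIs. Spp1 without Cxcl9 was the largest class, with 394 of 633 macrophages in 4T1P (62.2%, exact binomial interval 58.3% to 66.0%) and 481 of 760 in 4T1M (63.3%, 59.7% to 66.7%). Neither gene was found in 28.1% (24.6% to 31.8%) and 26.1% (23.0% to 29.3%). Cxcl9 without Spp1 was found in 32 cells of 4T1P (5.06%, 3.48% to 7.06%) and 26 cells of 4T1M (3.42%, 2.25% to 4.97%). Both genes were found in 29 cells of 4T1P (4.58%, 3.09% to 6.51%) and 55 cells of 4T1M (7.24%, 5.50% to 9.32%). At the same depth Spp1 was also found in 2 of 39 B cells of 4T1P (5.13%) and 7 of 45 of 4T1M (15.6%). The part of such background Spp1 in the classes and in the double-positive cells was not tested. The intervals of the 2 tumors overlapped for each of the 4 classes. Within the Cxcl9-positive macrophages, Spp1 was detected in 47.5% in 4T1P (29 of 61, 34.6% to 60.7%) and 67.9% in 4T1M (55 of 81, 56.6% to 77.8%). Among macrophages without Cxcl9 the Spp1 share was 68.9% (64.9% to 72.7%) and 70.8% (67.3% to 74.2%). In 4T1P the Spp1 share was lower beside Cxcl9 than without it, with intervals apart, but this separation depended on the setting. The share stayed lower in 4T1P in all 10 alternatives run, while the intervals overlapped in 7 of them, as with the 1% gate for macrophage genes (52.0%, 37.4% to 66.3%, against 68.9%, 64.2% to 73.4%) and without thinning (73.6%, 65.2% to 81.0%, against 77.9%, 74.5% to 81.0%). The number of double-positive cells in 4T1P was 0.711 of the product of the 2 single shares. In 4T1M these intervals overlapped and the quotient was 0.963. The direction in 4T1M also depended on the setting. Without thinning the Spp1 share there was higher beside Cxcl9 (83.4% against 77.4%). The same held without cells holding another type's marker (85.0% against 70.5%), and the intervals overlapped in both settings. Before thinning, the median depth of the 4T1P classes was 9813 UMIs for Cxcl9 only, 18225 for both, 14580 for Spp1 only and 11350 for neither, and that of the 4T1M classes 12734, 13610, 12064 and 10446 UMIs. In neutrophils thinned in the same way, the double-positive class held 0.191% and 0.358%, and Cxcl9 only 1.15% and 1.0%.

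**Figure D3:**
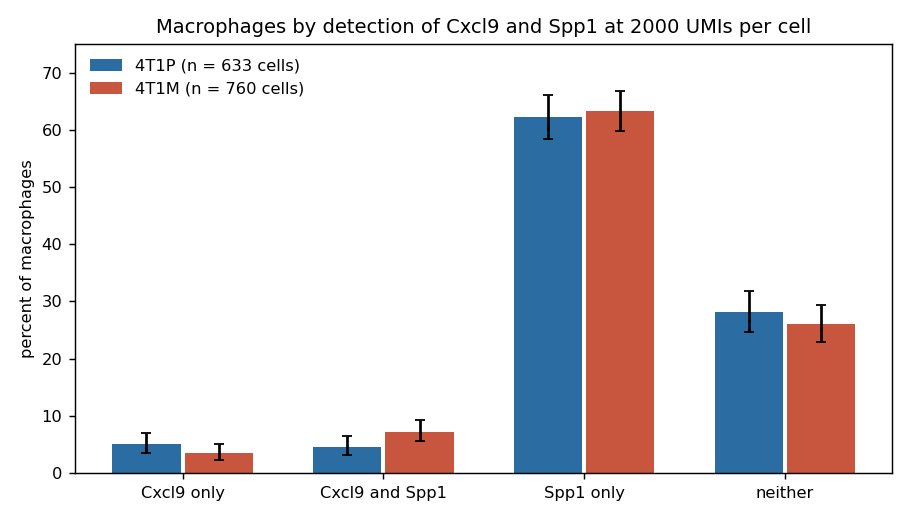
Percent of macrophages in the 4 classes of Cxcl9 and Spp1 detection at 2000 UMIs per cell, in 4T1P (blue, 633 cells) and 4T1M (red, 760 cells), with 95% exact binomial intervals for counting error. Spp1 without Cxcl9 is the tallest pair of bars, at 62.2% and 63.3%, and the intervals of both tumors overlap in each class.

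Cxcl16 and Cxcl10 accompanied Cxcl9 to different degrees. Cxcl16 was detected in 72.1% of Cxcl9-positive macrophages in 4T1P (59.2% to 82.9%) against 51.4% of the others (47.2% to 55.6%), and in 75.3% (64.5% to 84.2%) against 58.8% (55.0% to 62.5%) in 4T1M. Cxcl10 was detected in 34.4% (22.7% to 47.7%) against 20.3% (17.1% to 23.8%) in 4T1P and in 32.1% (22.2% to 43.4%) against 25.5% (22.2% to 28.9%) in 4T1M. The Cxcl16 intervals lay apart in both libraries and the Cxcl10 intervals overlapped in both. The Cxcl10 share was still the higher one beside Cxcl9 in each library. Cxcl16 was found as often with Spp1 as without it, at 53.4% and 53.3% in 4T1P and 60.4% and 60.7% in 4T1M, with a quotient over the product of shares of 1.0 and 0.999.

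The summed levels gave the same picture for Cxcl16 but not for Cxcl10. Cxcl16 had 707 CPM in the Cxcl9-only macrophages of 4T1P (618 to 805), 763 CPM in those with both (683 to 849), 403 CPM in the Spp1-only cells (387 to 420.2) and 478 CPM in the cells with neither (449 to 508). In 4T1M these levels were 732 CPM (641 to 833), 752 CPM (689 to 819), 529.6 CPM (511 to 549) and 581 CPM (550 to 614). Both Cxcl9-positive classes were thus above both Cxcl9-negative classes in each library, with intervals apart. These intervals leave out the spread between cells. With classes made at 4000 UMIs the Cxcl9-only over Spp1-only log2 ratio of Cxcl16 in 4T1M was 0.16 (-0.06 to 0.37), against 0.47 (0.27 to 0.66) at 2000 UMIs. Cxcl10 had 557 CPM (479 to 645) in Cxcl9-only, 241 CPM (198 to 292) in double-positive, 301 CPM (287 to 316) in Spp1-only and 405 CPM (378 to 433) in double-negative macrophages of 4T1P. The highest cell held 26.3%, 27.4%, 8.50% and 22.9% of the Cxcl10 UMIs of these classes. In 4T1M Cxcl10 had 387 CPM (321 to 461), 345 CPM (303 to 392), 307 CPM (293 to 321) and 345 CPM (321 to 371), and each of these intervals overlapped with the others. The Cxcl9-only over Spp1-only log2 ratio of Cxcl10 was 0.89 in 4T1P (0.66 to 1.11) and 0.33 in 4T1M (0.06 to 0.60), and at 1000 UMIs per cell the 4T1M ratio was -0.11 (-0.45 to 0.21). Spp1 itself was lower in cells that also had Cxcl9, at 1692 CPM against 4492 CPM in the Spp1-only cells of 4T1P and 2778 CPM against 5056 CPM in 4T1M. Cxcl9 was at 1529 and 1282 CPM in the Cxcl9-only cells and at 1366 and 992 CPM in the double-positive cells. The last 4 pairs follow in part from the rule that made the classes and are given as a description.

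**Figure D4:**
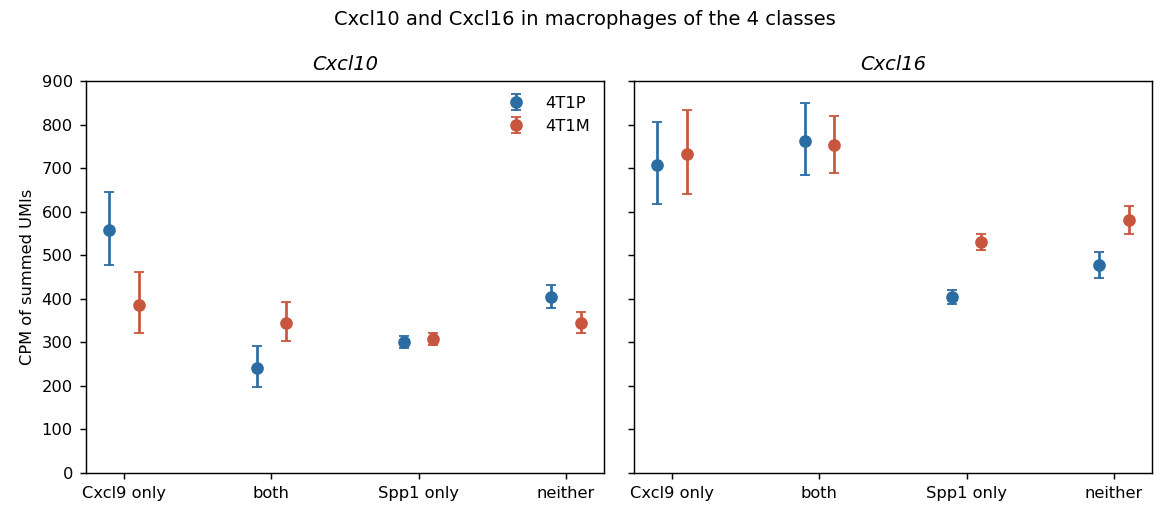
CPM of Cxcl10 and Cxcl16 in macrophages with Cxcl9 only, with both genes, with Spp1 only and with neither, in 4T1P (blue) and 4T1M (red), with 95% Poisson intervals for counting error. Cxcl16 is above 700 CPM in both Cxcl9-positive classes and below 600 CPM in the other classes of both libraries. Cxcl10 is highest in the Cxcl9-only cells of 4T1P, at 557 CPM, with 26.3% of those UMIs from 1 cell.

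Cxcl9-only and Spp1-only macrophages were compared gene by gene within each library. A gene was counted when it was at least 1.5-fold apart in the same direction in both libraries, among 7405 genes with at least 50 UMIs over the 2 classes in each. The class of Cxcl9-only cells is small (32 and 26 cells), and 4.82% of all genes were higher in it and 6.98% lower by this rule. Genes of interferon-gamma sensing and response were higher in the Cxcl9-only cells, 12 of 20, with 0 lower and median log2 ratios of 1.28 in 4T1P and 0.63 in 4T1M. Jak2, the kinase bound to the interferon-gamma receptor, had 131 CPM against 52.9 CPM in 4T1P (log2 ratio 1.30, 0.80 to 1.77) and 151 against 92.0 CPM in 4T1M (0.71, 0.26 to 1.14). The interferon-induced GTPases Gbp2, Gbp3, Gbp4, Gbp5, Gbp7, Iigp1, Igtp and Irgm1 were all higher, Gbp2 with 209 against 38.3 CPM (2.45, 2.03 to 2.85) and 239 against 76.5 CPM (1.64, 1.27 to 2.0). The receptor chains Ifngr1 and Ifngr2 and the kinase Jak1 were not past the fold in both libraries, nor was Cd274, which encodes PD-L1, with ratios of 1.07 in 4T1P and 0.05 in 4T1M. Nos2, the inducible nitric oxide synthase, had 34.2 against 37.1 CPM in 4T1P and, in 4T1M, 0 UMIs in the Cxcl9-only cells against 68.5 CPM in the Spp1-only cells.

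Type I interferon genes were higher in 5 of 11, with 0 lower, with medians of 1.85 in 4T1P and 0.49 in 4T1M, a difference that was not tested. Rsad2, an antiviral enzyme, had 1192 against 240 CPM in 4T1P (2.31, 2.15 to 2.48) and 1216 against 739 CPM in 4T1M (0.72, 0.57 to 0.87). Isg15, a ubiquitin-like protein, had 1058 against 288 CPM and 893 against 709.9 CPM, so that its 4T1M ratio of 0.33 did not reach the fold. Of the 8 genes of MHC class II presentation, 6 were higher and 0 lower (medians 1.30 and 0.76). The class II chain H2-Aa had 6394 against 2164 CPM in 4T1P (1.56, 1.5 to 1.63) and 5893 against 3318 CPM in 4T1M (0.83, 0.76 to 0.90), and Cd74, the invariant chain, had 13710 against 6104 CPM and 14110 against 8598 CPM. Ciita, the class II transactivator, had 84.1 against 28.9 CPM and 56.6 against 44.7 CPM and was past the fold in 4T1P only.

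Genes of hypoxia and glycolysis were lower in Cxcl9-only than in Spp1-only macrophages, 7 of 14, with 0 higher and medians of -0.81 and -0.65. Slc2a1, a glucose transporter, had 96.5 against 220.3 CPM in 4T1P (-1.19, -1.75 to -0.68) and 104 against 223 CPM in 4T1M (-1.11, -1.65 to -0.61). Hilpda, a hypoxia-induced lipid droplet protein, had 330.0 against 893 CPM (-1.44) and 248 against 708 CPM (-1.51). Of 12 genes of lipid-associated macrophages, 8 were lower and 0 higher (medians -1.34 and -1.31), among them Lgals3, galectin-3, with 641 against 1906 CPM and 701 against 2076 CPM, the fatty-acid binding protein Fabp5, with 152 against 405 CPM and 179 against 620.4 CPM, and the protease Ctsl, with 489 against 1239 CPM and 434 against 1604 CPM. Trem2, the lipid receptor for which these cells are often named, had ratios of -0.67 and -0.17 and did not reach the fold in 4T1M. Of 10 genes of matrix and remodelling, 5 were lower and 0 higher (medians -1.68 and -1.98). Arg1, arginase, had 819 against 2685 CPM in 4T1P (-1.71, -1.89 to -1.54) and 654 against 2287 CPM in 4T1M (-1.81, -2.01 to -1.61), the elastase Mmp12 had 392 against 1310 CPM and 305 against 1541 CPM, and Thbs1, thrombospondin, had 31.1 against 274 CPM and 31.4 against 139.6 CPM. Adm and Gpnmb had 0 UMIs in the Cxcl9-only cells of both libraries, and with 3 UMIs put in place of 0 the counts were 6 lower for hypoxia and glycolysis (medians -0.73 and -0.57) and 7 lower for lipid-associated genes (medians -1.03 and -1.31).

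**Figure D5:**
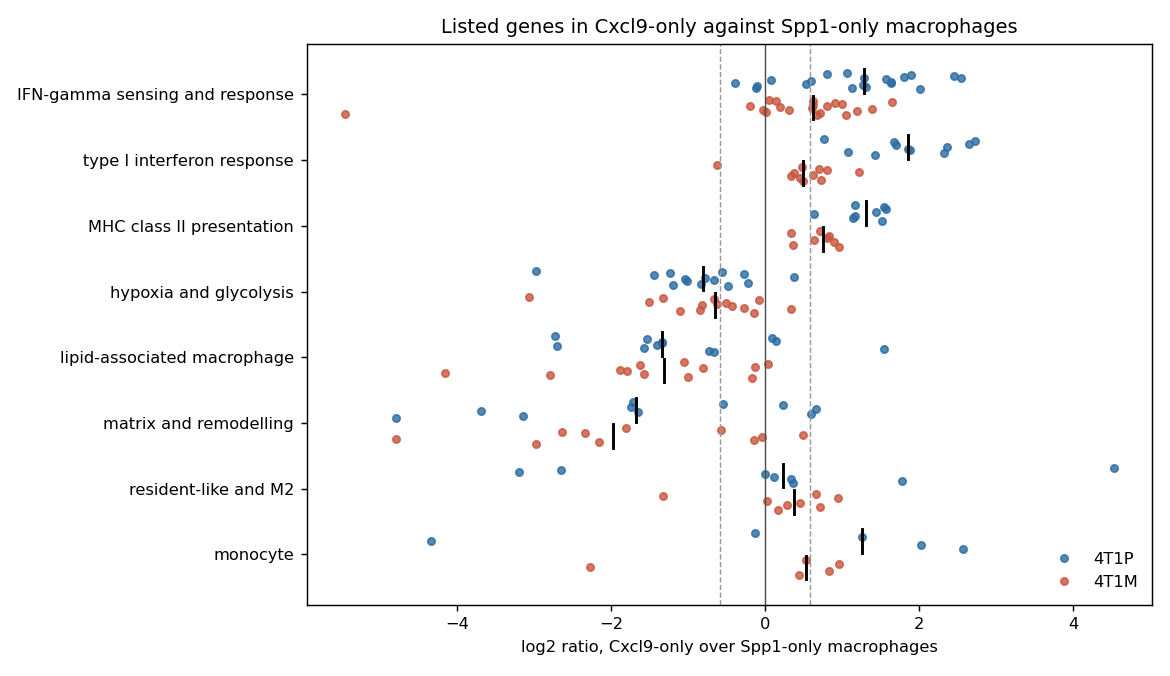
Log2 ratio of Cxcl9-only over Spp1-only macrophages for each tested gene of 8 lists, with 4T1P in blue and 4T1M in red; black ticks are medians, dashed lines mark a 1.5-fold difference, and 0.5 UMIs were added where a class had 0, so that those points are no bound. Interferon and MHC class II genes lie mostly to the right, with medians from 0.49 to 1.85, and hypoxia, lipid and matrix genes mostly to the left, with medians from -0.65 to -1.98.

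The remaining lists were mixed. Of 8 resident-like and M2 genes, 2 were higher and 1 lower. Selenop, a selenium transport protein, had 1311 against 383 CPM in 4T1P and 421 against 258 CPM in 4T1M, and the monocyte chemokine Ccl8 had 2618 against 114 CPM and 182 against 115 CPM, with 38.6% of its Cxcl9-only UMIs in 4T1P from 1 cell. F13a1, coagulation factor XIII, was lower, at 65.4 against 409.8 CPM and 53.4 against 134 CPM. Of 5 monocyte genes, Ms4a4c and Cx3cr1, the fractalkine receptor, were higher (2 of 5) and Hp, haptoglobin, was lower (1 of 5), on 0 and 2 UMIs in the Cxcl9-only cells. Of 7 receptor genes, Itga9, an integrin that binds SPP1, was higher (1 of 7), with 112 against 68.0 CPM and 107 against 49.3 CPM, and Cd44 had ratios of -0.55 and -0.58, just short of the fold. Of 3 enzymes that cut these ligands, Mmp9 was lower, with 0 UMIs against 77.3 CPM in 4T1P and 3.14 CPM (1 UMI) against 20.7 CPM in 4T1M, while Adam17, which sheds CXCL16, had ratios of 0.43 and 0.44 and Adam10, the other sheddase, -0.75 and 0.15. Several counts depended on the gate. With macrophage genes at 1% or more of UMIs, 2 of 8 MHC class II, 3 of 13 hypoxia, 5 of 10 lipid and 3 of 8 matrix genes passed, and with classes made at 4000 UMIs 2 of 9 type I interferon genes and 4 of 14 hypoxia genes did. Of 20 interferon-gamma genes, 9 were higher with TMM scaling, with DESeq2 scaling or at 4000 UMIs. At the 1% gate 11 of the 20 were higher and 1 lower. The mixed lists moved too. Of resident-like and M2 genes, 0 of 8 were higher at the 1% gate and 0 of 9 at 4000 UMIs. Of receptors, 0 of 7 were higher in either setting. Of monocyte genes, 0 of 7 were higher at 4000 UMIs, and 0 of 2 enzymes were lower at the 1% gate. Calls over all genes fell as well. Of 357 higher and 517 lower genes, 198 and 288 were also called with the 1% gate and 124 and 223 at 4000 UMIs.

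Other cells' markers differed between these classes too. The 8 B cell markers summed to 134 CPM in Cxcl9-only and 7.77 CPM in Spp1-only macrophages of 4T1P, where 7 of the 8 were at 0 in the Cxcl9-only cells and Ighm gave the whole sum, and to 123 and 36.1 CPM in 4T1M, where 3 of the 8 were at 0. At least 2 B cell markers were found in 5 of 26 Cxcl9-only cells of 4T1M (19.2%), against 3.53% of its Spp1-only cells. In 4T1P they were found in 0 cells of either class. The 9 dendritic markers summed to 37.4 against 9.71 CPM and 34.6 against 16.4 CPM, with 6 of 9 at 0 in the Cxcl9-only cells of each library. The 9 carcinoma markers summed to 12.5 against 40.2 CPM and 15.7 against 42.8 CPM, and the 10 neutrophil markers to 237 against 308 CPM and 371 against 474 CPM. Median mitochondrial shares were 5.01% against 4.70% and 5.47% against 4.23%. The part of these in the differences above was not tested.

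Macrophages with both Cxcl9 and Spp1 were set against the same Spp1-only cells, a comparison added after the data were seen, and 2.97% of 7505 genes were higher in both libraries and 4.16% lower. The double-positive cells had higher MHC class II genes (7 of 8, medians 1.07 and 0.72) and higher interferon-gamma genes (8 of 20, medians 0.50 and 0.69, with Nos2 the 1 gene lower, on 1 and 14 UMIs). Type I interferon genes were not higher in them (0 of 11 higher and 1 lower, medians 0.17 and 0.19), and Rsad2 had ratios of 0.40 and 0.20, beside 2.31 and 0.72 for the Cxcl9-only cells. Hypoxia (7 of 14), lipid-associated (9 of 12) and matrix genes (6 of 10) were lower in the double-positive cells, with Arg1 at 929 against 2685 CPM in 4T1P and 942 against 2287 CPM in 4T1M. With 3 UMIs put in place of 0, 8 of the 12 lipid-associated genes were lower. Of the other lists, 0 of 8 resident-like genes were higher and 2 lower, 1 of 5 monocyte genes was higher and 0 lower, 0 of 7 receptors passed and 1 of 3 enzymes was lower. Markers of other cells moved with this class too. Dendritic markers summed to 15.9 CPM in double-positive and 9.71 CPM in Spp1-only cells of 4T1P (7 and 1 of 9 at 0) and to 78.5 and 16.4 CPM in 4T1M (4 and 2 of 9 at 0), where 9.09% and 0.208% of the cells held at least 2 of them. B cell markers summed to 36.4 and 7.77 CPM in 4T1P (6 and 3 of 8 at 0) and to 109.9 and 36.1 CPM in 4T1M (2 and 3 of 8 at 0). Their part in the differences was not tested. The 2 comparisons share the Spp1-only cells, and the difference between them was not tested.

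The lists were also compared between the tumors over all macrophages. There 4.03% of 9874 genes were at least 1.5-fold higher in 4T1M and 4.08% at least 1.5-fold lower. Cxcl9 and Cxcl10 themselves had log2 ratios of 0.10 and -0.05, but -0.84 and -0.22 with a mitochondrial limit of 5%. Without cells holding another type's marker these 2 ratios were -0.86 and -0.49. Type I interferon genes were higher in 4T1M in 10 of 11 (0 lower, median 1.22), with Rsad2 at 294 CPM in 4T1P and 795.5 CPM in 4T1M (log2 ratio 1.44, 1.37 to 1.5), Irf7, a factor that amplifies interferon production, at 61.9 and 186 CPM (1.59, 1.45 to 1.73) and Isg15 at 342 and 774 CPM (1.18, 1.12 to 1.24). Of 21 interferon-gamma genes 9 were higher and 0 lower (median 0.55), among them Gbp2 at 54.1 and 106 CPM. MHC class II genes stayed below the fold (0 of 8, median 0.49). Resident-like and M2 genes were lower in 4T1M in 8 of 11, with 0 higher and a median of -1.0, among them F13a1 at 433 and 134 CPM. Hypoxia genes (0 of 14 in either direction, median -0.06) and lipid-associated genes (3 of 13 higher, 0 lower, median 0.05) mostly stayed within the fold. Of 8 monocyte genes 3 were higher and 0 lower, of 11 matrix genes 1 was higher and 3 lower, of 7 receptors 0 passed, and of 3 enzymes Mmp9 was lower (1 of 3), at 55.8 and 16.9 CPM. Macrophages of 4T1M thus had more interferon-response RNA than those of 4T1P. Their summed Cxcl10, a gene of the same response, differed by a log2 ratio of -0.05. That sum rested in part on few cells, since 10 macrophages held 32.2% of the Cxcl10 UMIs in 4T1P and 17.9% in 4T1M. The share of macrophages with Cxcl10 at the common depth was 21.6% in 4T1P and 26.2% in 4T1M, with overlapping intervals. Monocyte and neutrophil RNA moved with the tumor as well, with the neutrophil markers at 290 and 481 CPM and Ly6c2 at 3.76 and 28.0 CPM, and their part in these differences was not tested. With only the shallower macrophages that held no other type's marker, neutrophil markers aside, 6 of 8 MHC class II genes were higher in 4T1M.

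The genes most like Cxcl9 across macrophages were ranked by their log2 ratio between cells with and without a Cxcl9 UMI at 2000 UMIs. The smaller ratio of the 2 libraries was used, with 61 and 81 Cxcl9-positive cells. The 3557 genes ranked had at least 100 UMIs in the macrophages of each library and UMIs in at least 20 Cxcl9-positive macrophages. This filter favors genes seen in Cxcl9-positive cells, so a rank is a place among such genes only. Vcam1 was seen in 24 and 26 of those cells and Iigp1 in 22 and 36. The first 8 were Serpina3g, Vcam1, Gbp2, Gbp2b, AW112010, Slamf8, Fgl2 and Iigp1. Serpina3g, a serine protease inhibitor, had ratios of 2.96 (2.67 to 3.26) in 4T1P and 2.23 (1.93 to 2.53) in 4T1M, and Vcam1, an adhesion molecule, 1.69 and 1.76. Cxcl16 ranked 139 (0.80 and 0.46), Cxcl10 657 (0.19 and 0.18) and Spp1 3530 (-1.71 and -0.91). For Spp1, with 423 and 536 positive cells, 6646 genes passed the same filter applied to Spp1-positive macrophages. The first 8 were Dcstamp, Apbb2, Cdh1, AA467197, Olfr920, Nt5e, Camk2n1 and Il7r. Dcstamp, a protein of macrophage fusion, had ratios of 2.57 (1.6 to 3.73) and 2.20 (1.35 to 3.19) and was seen in 33 and 46 of the Spp1-positive cells, and Nt5e, which encodes the ectoenzyme CD73, had ratios of 0.99 (0.66 to 1.32) and 1.26 (0.88 to 1.66). Cdh1, E-cadherin, is also among the carcinoma markers and had ratios of 1.45 and 1.4. In that ranking Cxcl16 stood at 5381, Cxcl10 at 5751 and Cxcl9 at 6583.

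Between the Cxcl9-only and Spp1-only cells, the 5 genes with the highest ratio in both libraries were Vcam1, Serpina3g, Rnase6, Cp and Ighm. In the Cxcl9-only cells, Rnase6 rested on 14 and 11 UMIs in 6 and 7 cells. There 1 cell held 17.7% and 44.7% of the Serpina3g UMIs and 37.5% and 36.4% of those of Cp. Vcam1 had 638 against 65.1 CPM in 4T1P (3.29, 3.04 to 3.54) and 330.0 against 45 CPM in 4T1M (2.87, 2.53 to 3.21), and it was found in 16 of 32 and 14 of 26 Cxcl9-only cells. The 5 lowest were the hemoglobin genes Hbb-bs, Hba-a1, Hba-a2 and Hbb-bt, whose UMIs came from 1 cell in at least 99.2% in the 4T1P Spp1-only class and in at least 65.2% in that of 4T1M, and Lif, a cytokine of the IL-6 family. Lif had 0 UMIs in the Cxcl9-only cells of both libraries and 21.4 and 17.3 CPM in the Spp1-only cells, where its UMIs were spread over 50 and 51 cells. With 3 UMIs put in place of 0 it was 2.29-fold and 1.83-fold lower. The upper limits of the counting intervals of its log2 ratio were -0.87 in 4T1P and -0.55 in 4T1M, the latter short of 1.5-fold.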

How the data were processed

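Raw UMI counts per gene and barcode of 1 droplet library of sorted GR1+ tumor cells for each of 4T1P and 4T1M were analysed. The authors deposited these counts without normalization, made against mm10 (GRCm38) with Cell Ranger 4.0.0 per the labels and the file headers, and the paper's methods name another version. Reads were not analysed here. Cells and gates followed the limits given in the report, without doublet removal. T or NK cells and B cells were cells outside both gates with at least 3 UMIs of that type's markers and more of them than of the other's.

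UMIs were summed per library and class and scaled to CPM. Exact intervals were Poisson for CPM, binomial (Clopper-Pearson) for shares and conditional for log2 ratios, all at 95%. Those for CPM and log2 ratios treat UMIs as independent and leave out the spread between cells. For calling, 0.5 UMIs were added where a class had 0. Cells were thinned to 2000 UMIs without replacement (seed 1). With 1 library per tumor no test was run and no p-value computed. The main steps ran in Python 3.11.15 with scipy 1.17.1 and scanpy 1.11.5, which also gave the doublet scores (Scrublet, highest scores removed at 0.8% per 1000 barcodes as an alternative). TMM factors of edgeR 4.0.16 and size factors of DESeq2 1.42.0 were used as other scalings only.

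The 4 genes and all 10 gene lists were chosen with earlier results of these data known. Named besides list members were the 8 genes most like Cxcl9 or Spp1 and the 5 highest and 5 lowest between the classes. The lists' Cxcl11 and Mx1 were not analysed here, and Aldoa was left out because its symbol has 2 features. Gene positions came from GENCODE M21 (GRCm38), and promoters from RefSeq, which matched 3 of the 4 genes. Alternatives tried are given in the closing section.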

Additional observations from a re-analysis of the deposited data

Results flagged for a closer look

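Of the listed genes, 3 were at least 1.5-fold apart between Cxcl9-only and Spp1-only macrophages but in opposite directions in the 2 tumors. These opposite directions were not tested. Lpl, lipoprotein lipase, had a log2 ratio of 1.54 in 4T1P and -2.78 in 4T1M, and all 13 of its UMIs in the Cxcl9-only cells of 4T1P came from 1 cell. Folr2, a folate receptor of resident-like macrophages, had -3.19 in 4T1P and 0.95 in 4T1M, on 3 and 14 UMIs in the Cxcl9-only cells. Cmpk2, a type I interferon gene, had 0.76 and -0.63, on 5 UMIs in the Cxcl9-only cells of each library.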

How the results depend on the processing

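With 1 library per tumor, no replicate could be left out, and the values below are descriptions. No paired analysis was possible because each tumor has 1 library. The Cxcl9-only class holds only 32 and 26 cells. The intervals of its levels and ratios come from summed UMIs and leave out the spread between these cells. For the log2 ratio of 4T1M over 4T1P in macrophages, a gate of at least 1% macrophage genes gave 0.29 for Cxcl9, 0.036 for Cxcl10, 0.39 for Cxcl16 and -0.11 for Spp1. A mitochondrial limit of 5% gave -0.84 for Cxcl9 and -0.22 for Cxcl10. Without cells holding another type's marker (neutrophil markers not counted), which left the shallower cells, the ratios were -0.86 for Cxcl9, -0.49 for Cxcl10 and -0.0096 for Spp1. With no upper limit on genes, an alternative chosen after seeing the data, Cxcl16 was at 0.42 and Spp1 at 0.0030. Spp1 was at 0.21 with S100a8 and S100a9 under 0.5%, 0.20 with TMM scaling and 0.21 with DESeq2 scaling. The cause of these shifts was not tested.

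The share with both genes moved with the depth, and the Cxcl9-only share was 4.15%, 4.22% and 4.26% in 4T1P and 3.30%, 3.37% and 3.07% in 4T1M at 1000 UMIs, at 4000 UMIs and without thinning. At 1000 UMIs per cell, both genes were found in 2.85% of 4T1P and 3.73% of 4T1M macrophages, Spp1 only in 53.6% and 53.8%, and Spp1 in 53.0% of Cxcl9-positive 4T1M cells. At 4000 UMIs, both were found in 6.91% and 11.5%, Spp1 only in 69.1% of 4T1P cells, and Spp1 in 62.1% of Cxcl9-positive 4T1P cells. Without thinning, both were found in 11.9% and 15.5%, and Spp1 in 73.6% and 83.4% of Cxcl9-positive cells, against 77.9% and 77.4% of the others. With detection from 2 UMIs, both were found in 2.05% and 2.24%, Spp1 only in 49.9% and 54.1%, and Spp1 in 34.2% and 43.6% of Cxcl9-positive cells. The mitochondrial limit of 5% gave Spp1 only in 66.7% and 67.8%. Without cells holding another type's marker, Cxcl9 only was at 1.25% in 4T1M. Spp1 was then found in 85.0% of Cxcl9-positive cells of 4T1M (17 of 20), against 70.5% of the others. That filter removes cells by genes that differ between the classes. Its B cell marker Ighm was seen in 12 of 32 and 12 of 26 Cxcl9-only cells, against 16 of 394 and 67 of 481 Spp1-only cells. Its carcinoma marker Cdh1 was among the genes most like Spp1. Their part in these shares was not tested. Cxcl10 in Cxcl9-only over Spp1-only cells was at 1.22 in 4T1P at 4000 UMIs and -0.11 in 4T1M at 1000 UMIs, and Cxcl16 at 0.16 in 4T1M at 4000 UMIs.

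Between Cxcl9-only and Spp1-only cells, 614 genes were higher and 930 lower with at least 10 UMIs, and 232 were higher with the 1% gate. With no filter on low genes the counts were 3063 and 930. That 3063 includes genes without a UMI in the Cxcl9-only cells, because UMIs were added in place of 0. Mmp3, from the list of enzymes, had 0 UMIs there against 1 in the Spp1-only cells of each library. Its log2 ratios were still 2.56 in 4T1P and 2.61 in 4T1M. The 3063 is thus no count of genes with more RNA in the Cxcl9-only cells. Between the double-positive and Spp1-only cells, at least 10 UMIs gave 453 higher and 719 lower. Between the tumors, at least 10 UMIs gave 945 higher and 1002 lower, and no filter, which lets in genes with hardly any UMIs, 3083 and 3194. Of the 357 higher and 517 lower genes, 168 and 229 were also called with classes made at 1000 UMIs, 124 and 223 at 4000 UMIs, 198 and 288 with the 1% gate, and 339 and 487 without doublet-scored cells. TMM scaling kept 290 and 517 of them and DESeq2 scaling 301 and 517.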
